A study of Mus musculus with 8 samples.

Results

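The genes *Fgf21*, *Enho*, *Angptl4*, *Angptl6* and *Igfbp2*, which encode secreted proteins, *Lepr*, which encodes the leptin receptor, and *Pdk4*, *Lpin1* and *Sesn1*, which encode regulators inside the cell, were followed in mouse liver across 4 diets. These 9 genes were chosen by name, and every probe carrying one of the 9 symbols was taken, which gave 17 probes among 41174 gene probes on the array. All 9 were among the 17354 genes tested, and each was represented by its brightest probe, which was well above background on all 8 arrays. The RNA came from liver of male wild-type C57Bl/6J mice, an inbred strain, at 14 weeks of age after a fast of 4 h, and was read on single-colour Agilent arrays. BD_HF mice had dams on a standard breeder diet and ate a high fat diet (60% of energy from fat) from weaning, which the labels describe as the obesity model. LF_HF mice ate the same high fat diet after weaning, but from embryonic day 10.5 their dams received a low fat diet of defined composition (12% of energy from fat) with sufficient vitamin A. LF_LF mice had that low fat diet in both periods. VAD_VAD mice were on a low fat diet deficient in vitamin A (12% of energy from fat), through the dam from embryonic day 10.5 and after weaning. Each group had 2 arrays (n = 2 for every group value below). The labels do not say whether the 2 samples of a group came from separate animals, so a p-value here refers only to the spread between these samples, which may be technical. All replicate 1 arrays were on 1 slide and all replicate 2 arrays on the other, and each group held the same position on both slides, so group and position cannot be told apart.

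In fasting, the liver turns from making fat to oxidising it, and it releases proteins that tell other tissues about its nutrient state. FGF21 is the best known of these: it is induced by the nuclear receptor PPARA and by the amino acid stress factor ATF4, and it acts on cells that carry an FGF receptor with the co-receptor beta-klotho. PDK4 blocks pyruvate dehydrogenase and so spares glucose, ANGPTL4 inhibits lipoprotein lipase, and lipin 1 makes diacylglycerol for triglyceride synthesis and acts with PPARA in the nucleus. The leptin receptor carries the signal of the adipose hormone leptin, and in liver part of its product is a soluble form that binds leptin in blood.

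Levels are given as the log2 signal minus the 75th percentile of the array's gene spots, so that 0 is that percentile and a difference of 1 is a change of 2-fold. Levels of different genes are not compared, because probes differ in brightness. The hepatocyte markers fixed for the check of tissue were well above background on all 8 arrays (10 of 10 genes). LF_HF replicate 1 stood apart from the other arrays. It had 88.4% of its spots well above background against 57.6% to 64.7% elsewhere, and 2707 outlier gene spots against 46 to 316. Its 75th percentile, against which its levels are set, was 496 against 195 to 296 elsewhere. Its median processed signal was 163 against 17.4 to 30.8. The file headers grade it ExtractionEvaluate and every other array ExtractionInRange. The mean absolute difference between the 2 replicates, over the 9 genes, was 1.56 in LF_HF against 0.40 in BD_HF, 0.41 in LF_LF and 0.92 in VAD_VAD. LF_HF replicate 1 had the lowest of the 8 levels for 5 of the 9 genes, where it was the lowest array for 39.1% of all genes with a value on every array. VAD_VAD replicate 1 had the highest level for 5 of the 9 genes, against 18.7% of all genes. The hepatocyte markers also had their highest mean level on VAD_VAD replicate 1 (7.98) and their lowest on LF_HF replicate 1 (6.62). Because the arrays share 1 estimate of the spread, the main differences of each gene below are also given without LF_HF replicate 1.

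Each value below is the signal of a 60-base probe, and 3 of these probes are shown. For *Angptl6* and *Lepr* it is the brightest probe, from which the values come, and for *Fgf21* it is the second probe. The *Fgf21* probe spans an intron (mm9, chr7:52869680-52870294, minus strand, a stretch of 615 bases for the 60 bases). The *Angptl6* probe lies in 1 unbroken stretch at the end of the coding sequence (mm9, chr9:20678326-20678385, minus strand), and the capitals mark its stop codon. The *Lepr* probe spans an intron too (mm9, chr4:101461940-101463441, plus strand), and it was printed 10 times on the array.
Fgf21 probe: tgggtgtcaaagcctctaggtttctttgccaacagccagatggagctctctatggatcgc
Angptl6 probe: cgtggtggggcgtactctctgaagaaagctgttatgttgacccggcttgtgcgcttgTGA
Lepr probe: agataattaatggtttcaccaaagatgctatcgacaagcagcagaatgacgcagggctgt

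The promoters of *Fgf21* and *Lpin1*, the genes with the largest difference in BD_HF minus LF_LF and in VAD_VAD minus LF_LF, are shown from 250 bases before to 50 bases after the annotated start (RefSeq, GRCm38.p6). The *Fgf21* window is chr7:45615441-45615740 and the *Lpin1* window is chr12:16610917-16611216, both on the minus strand. Capitals mark matches to the motifs searched.
Fgf21 promoter: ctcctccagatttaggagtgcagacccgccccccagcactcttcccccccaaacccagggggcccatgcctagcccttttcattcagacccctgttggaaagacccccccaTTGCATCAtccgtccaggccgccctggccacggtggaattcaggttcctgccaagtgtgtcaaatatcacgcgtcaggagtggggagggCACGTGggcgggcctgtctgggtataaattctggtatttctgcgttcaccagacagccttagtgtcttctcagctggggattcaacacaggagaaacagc
Lpin1 promoter: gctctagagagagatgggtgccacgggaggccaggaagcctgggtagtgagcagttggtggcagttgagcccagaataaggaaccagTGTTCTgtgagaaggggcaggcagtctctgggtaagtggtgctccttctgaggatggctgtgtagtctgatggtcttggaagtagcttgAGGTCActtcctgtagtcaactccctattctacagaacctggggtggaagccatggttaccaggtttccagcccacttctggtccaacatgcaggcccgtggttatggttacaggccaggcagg
In *Fgf21* the first run of capitals is an ATF4 element (TGATGNAA, here on the opposite strand), which 3.97% of 32851 RefSeq promoter windows of this length hold, and the second is an E-box (CACGTG, held by 7.15%). In *Lpin1* the first is a glucocorticoid receptor half-site (TGTTCT, held by 19.0%) and the second a nuclear receptor half-site (AGGTCA, held by 16.3%). Both strands were searched, and the half-sites and the CCAAT box are short enough to be common. Windows were found for 7 of the 9 genes (10 windows in all). Among the others, the first *Sesn1* window held a forkhead motif (GTAAACA, held by 3.65%), and 1 *Igfbp2* window held the E-box and the TGTTCT half-site. The CCAAT box of NF-Y (held by 37.4%) was found in windows of *Pdk4*, *Lepr* and *Sesn1*. The *Angptl6* window and the second *Lepr* and *Igfbp2* windows held none of these letters, and no window of the 9 genes held the CREB motif (TGACGTCA) or a direct repeat of AGGTCA with spacing 1, 2 or 5. A match is a description of the letters, not evidence of binding.

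**Figure D1:**
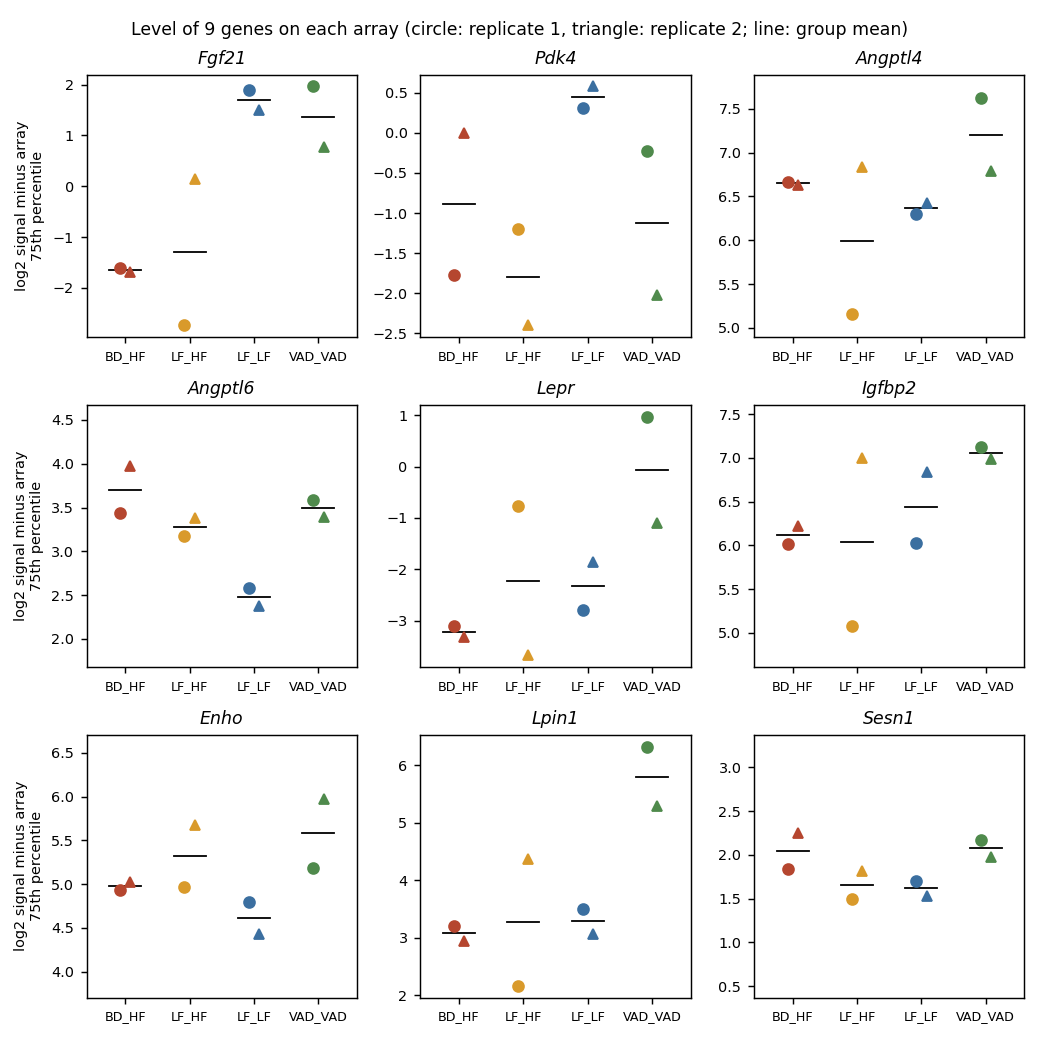
Level of each of the 9 genes on the 8 arrays, as log2 signal minus the array's 75th percentile, in the 4 diet groups. Circles are replicate 1, triangles replicate 2 and lines group means, and each panel has its own vertical range. *Fgf21* is high on all LF_LF and VAD_VAD arrays, *Lpin1* is highest on both VAD_VAD arrays, *Angptl6* is lowest on both LF_LF arrays, and the LF_HF arrays lie far apart for *Fgf21*, *Lepr* and *Lpin1*.

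*Fgf21*, the fasting hormone, was high in both low fat groups and low in both high fat groups. Its level was 1.89 and 1.49 on the LF_LF arrays, 1.96 and 0.76 on the VAD_VAD arrays, -2.74 and 0.14 on the LF_HF arrays, and -1.61 and -1.69 on the BD_HF arrays. Each of the 4 low fat arrays lay above each of the 4 high fat arrays, and LF_HF replicate 2 was the nearest to the low fat arrays. BD_HF minus LF_LF was -3.34 (SE 0.862, 95% interval -5.36 to -1.32), a 10.1-fold lower mean, and it was -3.499 on slide 1 and -3.18 on slide 2. The limma adjusted p was 0.146, so the difference did not pass the threshold of 0.05 in the fit of all 8 arrays. Without LF_HF replicate 1, the same difference had an SE of 0.407 and an adjusted p of 0.00677, and without LF_HF replicate 2 an adjusted p of 0.00690. Neither array enters the difference itself, only the shared estimate of the spread. An LF_HF array left alone in its group adds nothing to that spread. The fits without either LF_HF array are therefore nearly the same test, not separate checks. Over 23 alternatives the difference kept its sign, between -3.54 and -2.67, with adjusted p from 0.00106 to 0.703, and it passed in 7.

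The LF_HF arrays decided how low *Fgf21* was in that group. LF_HF minus LF_LF was -2.99 (SE 0.862, limma adjusted p = 0.144), with -4.63 on slide 1 and -1.36 on slide 2. Without LF_HF replicate 1 it was -1.56 (adjusted p = 0.112), and without LF_HF replicate 2 it was -4.43 (adjusted p = 0.00314), over a range of adjusted p from 0.00314 to 0.569 in 23 alternatives. In VAD_VAD minus LF_LF the difference was -0.33 (SE 0.862, adjusted p = 0.912, 95% interval -2.34 to 1.69), and the arrays of the 2 groups overlapped. BD_HF minus LF_HF was -0.35 (SE 0.862, adjusted p = 0.872), with 1.13 on slide 1 and -1.82 on slide 2. The second *Fgf21* probe, whose sequence is shown above, gave -3.36 for BD_HF minus LF_LF, close to the -3.34 of the brightest probe. The probes parted on LF_HF replicate 1, where the brightest probe read -2.74 and the second -1.498, and LF_HF minus LF_LF was -1.87 with the second probe. For BD_HF minus LF_HF the second probe gave -1.48, with -0.78 on slide 1 and -2.18 on slide 2, so the probes had opposite signs on slide 1.

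*Angptl6*, a secreted angiopoietin-like protein made mainly by hepatocytes, was lowest in LF_LF. Its level was 2.58 and 2.38 on the LF_LF arrays, 3.17 and 3.39 on the LF_HF arrays, 3.59 and 3.39 on the VAD_VAD arrays, and 3.43 and 3.97 on the BD_HF arrays. Both LF_LF arrays lay below the 6 others, which ran into one another. BD_HF minus LF_LF was 1.22 (SE 0.328, 95% interval 0.46 to 1.99), a 2.34-fold higher mean, with 0.85 on slide 1 and 1.59 on slide 2. The limma adjusted p was 0.158 with all 8 arrays, 0.0400 without LF_HF replicate 1 and 0.0400 without LF_HF replicate 2, and from 0.00935 to 1.00 over 23 alternatives, of which it passed in 7. The fits without either LF_HF array are again nearly the same test. VAD_VAD minus LF_LF was 1.01 (SE 0.328, adjusted p = 0.317), with 1.01 and 1.02 on the 2 slides, and LF_HF minus LF_LF was 0.80 (SE 0.328, adjusted p = 0.284). These 3 differences share the LF_LF arrays, so a low level there enters all of them. The second *Angptl6* probe gave 1.45, 1.21 and 0.91 for the same 3 differences, in the order in which they were just given.

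*Angptl4*, the inhibitor of lipoprotein lipase, was similar on 6 of the arrays. Its level was 6.67 and 6.63 in BD_HF, 6.30 and 6.43 in LF_LF, 7.63 and 6.79 in VAD_VAD, and 5.16 and 6.83 in LF_HF. VAD_VAD replicate 1 was the highest array and LF_HF replicate 1 the lowest. The difference VAD_VAD minus LF_LF was 0.84 (SE 0.565, limma adjusted p = 0.690), with 1.33 on slide 1 and 0.35 on slide 2, and an adjusted p of 0.187 without LF_HF replicate 1. BD_HF minus LF_HF was 0.65 (SE 0.565, adjusted p = 0.786). It took the opposite sign without LF_HF replicate 1, at -0.18 (adjusted p = 0.998), and was 1.49 without LF_HF replicate 2 (adjusted p = 0.0424), over a range of adjusted p from 0.0424 to 1.00 in 22 alternatives. The 2 LF_HF arrays thus set its direction.

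*Igfbp2*, which binds insulin-like growth factors in blood, was 7.13 and 6.98 in VAD_VAD, 6.03 and 6.84 in LF_LF, 6.02 and 6.22 in BD_HF, and 5.08 and 7.001 in LF_HF. The VAD_VAD arrays lay above the LF_LF arrays, the second of them by a narrow margin. For VAD_VAD minus LF_LF the difference was 0.62 (SE 0.613, limma adjusted p = 0.770, and 0.296 without LF_HF replicate 1). LF_HF minus LF_LF was -0.39 (SE 0.613, adjusted p = 0.800), 0.56 without LF_HF replicate 1 (adjusted p = 0.431) and -1.35 without LF_HF replicate 2 (adjusted p = 0.0445), over a range of adjusted p from 0.0445 to 0.999 in 23 alternatives. The 2 LF_HF arrays lay on either side of both LF_LF arrays.

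*Enho*, which encodes the peptide hormone adropin, was 4.80 and 4.43 in LF_LF, 4.94 and 5.02 in BD_HF, 4.97 and 5.68 in LF_HF, and 5.19 and 5.98 in VAD_VAD. Both LF_LF arrays were lower than all others, and the other 3 groups followed closely on one another. VAD_VAD minus LF_LF was 0.97 (SE 0.406, 95% interval 0.02 to 1.92, limma adjusted p = 0.472), with 0.39 on slide 1 and 1.54 on slide 2. Its adjusted p was 0.145 without LF_HF replicate 1 and 0.0983 to 1.00 over 23 alternatives. LF_HF minus LF_LF was 0.71 (SE 0.406, adjusted p = 0.433).

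*Lepr*, the leptin receptor, had its highest level in the vitamin A deficient group, with a wide spread between replicates. Its level was 0.98 and -1.10 on the VAD_VAD arrays, -2.80 and -1.85 on the LF_LF arrays, -0.76 and -3.68 on the LF_HF arrays, and -3.11 and -3.33 on the BD_HF arrays. The VAD_VAD arrays lay above those of LF_LF and BD_HF, but LF_HF replicate 1 lay between them. VAD_VAD minus LF_LF was 2.27 (SE 1.00, 95% interval -0.08 to 4.61), a 4.81-fold higher mean, with 3.78 on slide 1 and 0.75 on slide 2 and a limma adjusted p of 0.504, 0.117 without LF_HF replicate 1 and 0.0778 to 1.00 over 23 alternatives. LF_HF minus LF_LF was 0.10 (SE 1.00, adjusted p = 0.971) and pointed in opposite directions on the slides, with 2.04 on slide 1 and -1.83 on slide 2. The printed spots of this probe on an array, 9 or 10 of them after outliers were left out, had an SD between 0.07 and 0.30. The replicate arrays lay further apart than that in VAD_VAD, LF_LF and LF_HF, but not in BD_HF. The second *Lepr* probe, which the array assigns to another transcript variant and which was well above background on 6 of 8 arrays, gave 2.52 for VAD_VAD minus LF_LF and -0.84 for BD_HF minus LF_LF, beside -0.89 for the brightest probe.

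*Lpin1*, the phosphatidate phosphatase of triglyceride synthesis, had its 2 highest levels on the VAD_VAD arrays. It was 6.32 and 5.29 there, 3.501 and 3.07 in LF_LF, 3.21 and 2.95 in BD_HF, and 2.17 and 4.37 in LF_HF. Both VAD_VAD arrays lay above all others, and LF_LF and BD_HF overlapped. VAD_VAD minus LF_LF was 2.51 (SE 0.703, 95% interval 0.87 to 4.16), a 5.71-fold higher mean, with 2.81 on slide 1 and 2.21 on slide 2. The limma adjusted p was 0.240 with all 8 arrays, 0.0174 without LF_HF replicate 1 (SE 0.379) and 0.0177 without LF_HF replicate 2, and it ran from 0.00555 to 1.00 over 23 alternatives, of which the difference passed in 4. The fits without either LF_HF array are nearly the same test here too. All 4 *Lpin1* probes gave VAD_VAD minus LF_LF between 2.46 and 2.80. They lie close together at mm9 chr12:16543315-16544268, 2 of them overlap, and they are not independent readings. LF_HF minus LF_LF was -0.02 (SE 0.703, adjusted p = 0.993) as the mean of -1.33 on slide 1 and 1.30 on slide 2.

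**Figure D2:**
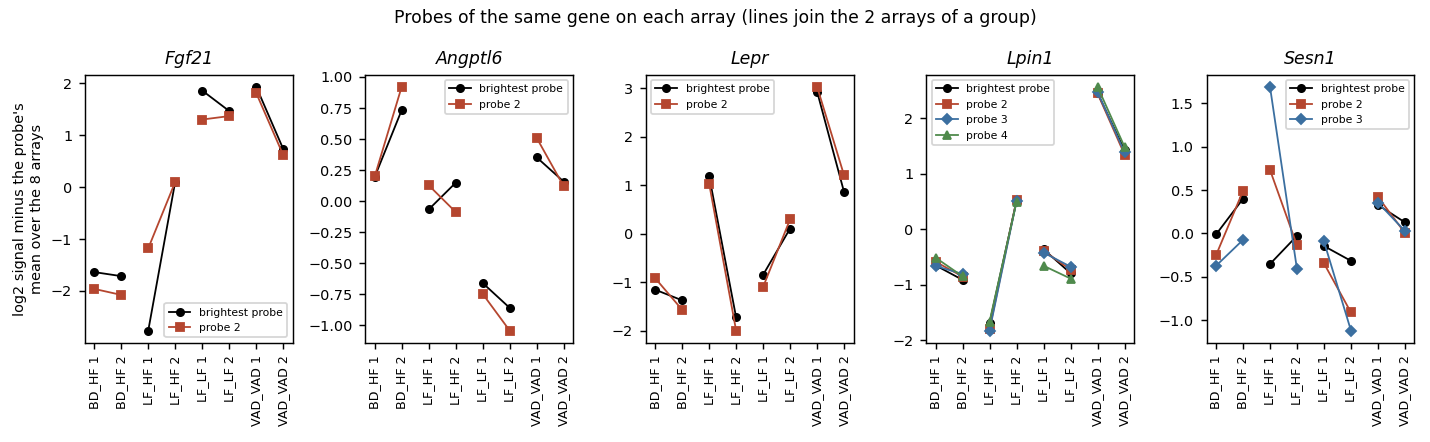
Signal of each probe of the 5 genes with more than 1 probe on the 8 arrays, as log2 minus the probe's own mean over the arrays, with lines joining the 2 arrays of a group. The 4 *Lpin1* probes lie on one another, the *Lepr* and *Angptl6* probes follow the same course except in LF_HF for *Angptl6*, the *Fgf21* probes part on LF_HF replicate 1, and the *Sesn1* probes part there most widely.

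*Pdk4*, the kinase that shuts off pyruvate dehydrogenase, was highest in LF_LF. Its level was 0.31 and 0.58 there, -0.23 and -2.02 in VAD_VAD, -1.78 and -0.01 in BD_HF, and -1.20 and -2.40 in LF_HF. Both LF_LF arrays lay above all others, and the other 3 groups overlapped. LF_HF minus LF_LF was -2.24 (SE 0.780, 95% interval -4.07 to -0.42), a 4.73-fold lower mean, with -1.51 on slide 1 and -2.97 on slide 2 and a limma adjusted p of 0.214. Without LF_HF replicate 1 it was -2.84 (adjusted p = 0.109), and over 23 alternatives the adjusted p ran from 0.0395 to 0.734, passing in 2. VAD_VAD minus LF_LF was -1.57 (SE 0.780, adjusted p = 0.567) and BD_HF minus LF_LF was -1.34 (SE 0.780, adjusted p = 0.564). These differences share the LF_LF arrays too. The BD_HF replicates lay further apart than the means of BD_HF and LF_LF.

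*Sesn1*, a stress-induced inhibitor of the growth kinase mTORC1, varied least. Its level was 1.70 and 1.53 in LF_LF, 2.18 and 1.97 in VAD_VAD, 1.84 and 2.25 in BD_HF, and 1.495 and 1.82 in LF_HF. The largest difference, VAD_VAD minus LF_LF, was 0.46 (SE 0.321, limma adjusted p = 0.696), with 0.47 and 0.44 on the 2 slides and an adjusted p of 0.317 without LF_HF replicate 1. Its 3 probes disagreed wherever LF_HF entered: BD_HF minus LF_HF was 0.38, -0.18 and -0.86, and LF_HF minus LF_LF was 0.04, 0.92 and 1.24.

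**Figure D3:**
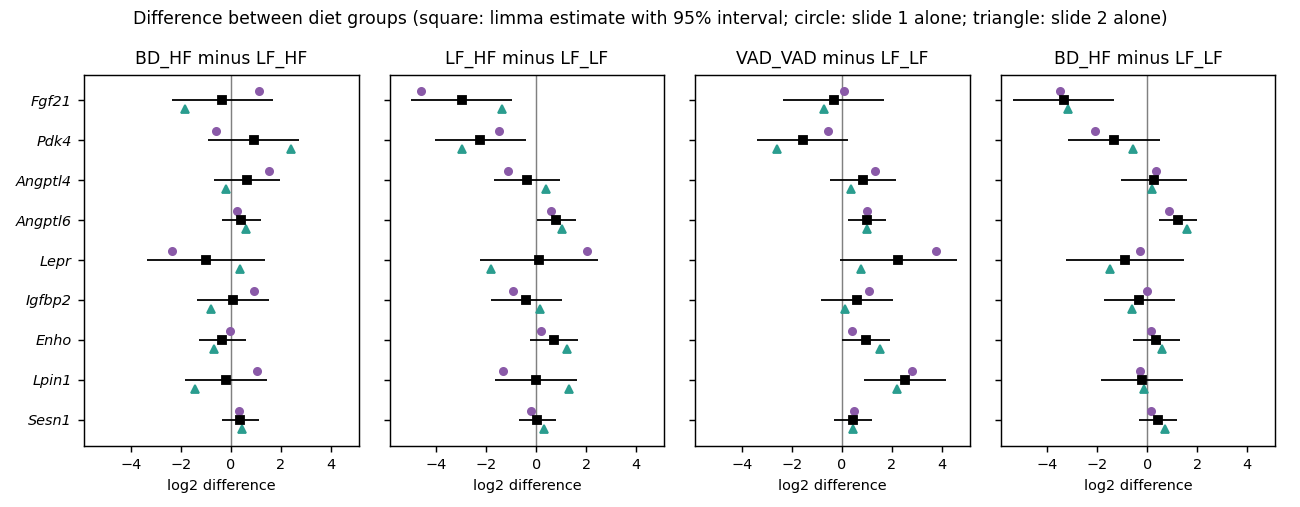
Difference between diet groups in log2 units for the 9 genes in the 4 comparisons, with the limma estimate and its 95% interval (squares, n = 2 arrays per group) and the difference on each slide alone (circles and triangles). Intervals are not adjusted for the number of genes tested. They exclude 0 for *Fgf21* and *Angptl6* in BD_HF minus LF_LF and for *Lpin1*, *Angptl6* and *Enho* in VAD_VAD minus LF_LF. In LF_HF minus LF_LF they exclude 0 for *Fgf21*, *Pdk4* and *Angptl6*. In both comparisons with LF_HF the slides often lie on opposite sides of 0.

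Across the comparisons, limma called 0 of the 9 genes at an adjusted p under 0.05. In BD_HF minus LF_LF, the comparison of the obesity model with lifelong low fat feeding, 0 of 9 were called, where 1.51% of all genes were, and 2 (*Fgf21* and *Angptl6*) had an unadjusted p under 0.05, where 12.8% of all genes did. The 2 arrays of each group did not overlap for 7 of the 9, against 60.3% of all genes. All 9 had the same sign on both slides, where 74.9% of all genes did. For this comparison the fits without either LF_HF array, given next, are nearly the same test. Without LF_HF replicate 1, 2 of 9 were called (*Fgf21* lower and *Angptl6* higher), where 9.15% of all genes were, and without LF_HF replicate 2 the same 2 were called, where 8.9% were.

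In VAD_VAD minus LF_LF, the comparison for vitamin A, 0 of 9 were called against 0.57% of all genes, and 3 (*Lpin1*, *Angptl6* and *Enho*) had an unadjusted p under 0.05, where 10.3% of all genes did. The groups did not overlap for 8 of the 9, *Fgf21* being the exception, against 58% of all genes. The median difference of the 9 was 0.84, beside 0.09 over all genes, and 7 of the 9 were higher in VAD_VAD. This shift was not particular to the 9 genes. The hepatocyte markers were higher in VAD_VAD for 10 of 10, with a median of 0.71, and 8 of the 10 did not overlap. For this comparison the fits without either LF_HF array, given next, are nearly the same test. Without LF_HF replicate 1, 1 of 9 was called (*Lpin1*, higher), where 5.31% of all genes were, and without LF_HF replicate 2 it was called again, where 5.15% were.

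In LF_HF minus LF_LF, the comparison of diets after weaning, 0 of 9 were called against 2.49% of all genes, and 3 (*Fgf21*, *Pdk4* and *Angptl6*) had an unadjusted p under 0.05, where 16.6% of all genes did. The groups did not overlap for 4 of the 9, the same 3 and *Enho*, against 44.5% of all genes. In BD_HF minus LF_HF, the comparison of maternal diets, 0 of 9 were called against 0.00576% of all genes, with 0 at an unadjusted p under 0.05, where 5.45% of all genes were. The groups did not overlap for 2 of the 9 (*Angptl6* and *Sesn1*), against 29.3% of all genes, and the limma adjusted p ranged from 0.786 to 0.960. Without LF_HF replicate 2, so with LF_HF replicate 1 alone, 2 of 9 were called in LF_HF minus LF_LF (*Fgf21* and *Igfbp2*, both lower), where 26% of all genes were, and 1 of 9 in BD_HF minus LF_HF (*Angptl4*, higher), where 18.9% were. In these 2 comparisons 4 and 3 of the 9 genes had the same sign on both slides, where 53.9% and 53.1% of all genes did.

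A test of any difference among the 4 groups called 0 of the 9, against 0.864% of all genes. Its adjusted p was lowest for *Fgf21* (0.193), *Lpin1* (0.239) and *Angptl6* (0.309).

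**Figure D4:**
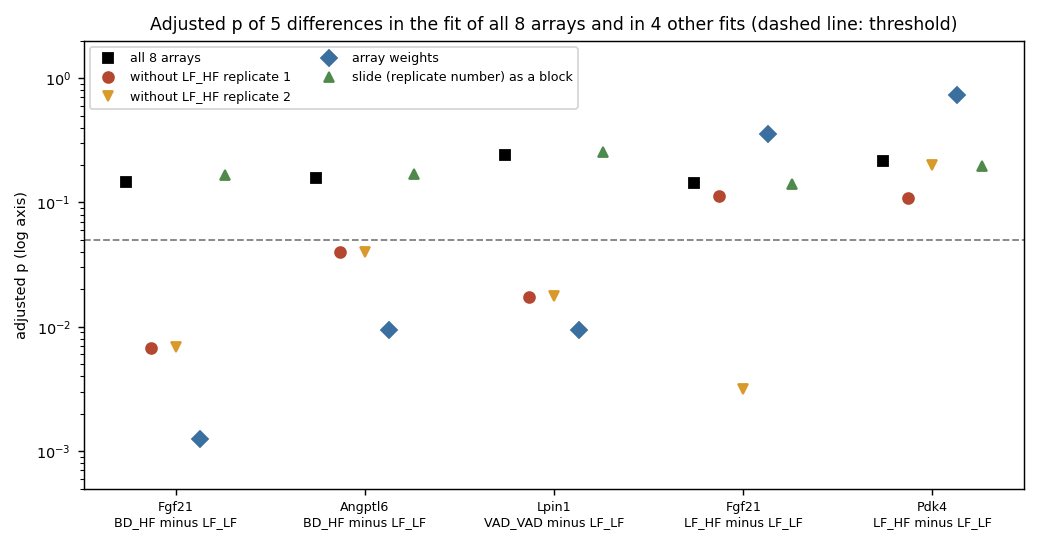
Adjusted p (log axis) of 5 differences in the fit of all 8 arrays and in 4 other fits, with the threshold of 0.05 as a dashed line. For differences that do not involve LF_HF, the fits without either LF_HF array are nearly the same test. For *Fgf21* and *Angptl6* in BD_HF minus LF_LF and *Lpin1* in VAD_VAD minus LF_LF, the fits without either LF_HF array or with array weights lie below the line and those of all 8 arrays, with or without the slide as a block, lie above it.

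The genes whose course over the 8 arrays was most like that of a member were sought for the 3 members with the largest range of group means, *Fgf21*, *Lepr* and *Lpin1*, among 16239 other genes. Likeness was the root mean square difference of log2 levels after each gene was centred on its mean, a description without a test. For *Lpin1* they were *Lrg1*, at 0.41, and *Plin5*, at 0.52. *Lrg1*, a secreted glycoprotein of the acute phase, read 9.42 and 8.38 in VAD_VAD and 6.23 to 8.39 elsewhere, and *Plin5* encodes a lipid droplet coat protein. For *Fgf21* they were *2010003K11Rik* (0.70) and *Marveld3* (0.72), and for *Lepr* they were *Enpp6* (0.58, well above background on 5 arrays) and *Rasd1* (0.62).

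The partners of these proteins were read from 10 lists with 115 genes, of which 111 were tested. In LF_HF minus LF_LF, 1 of the 111 was called higher and 5 lower, where 0.617% and 1.87% of all genes were. In BD_HF minus LF_LF 2 were higher and 3 lower, where 0.455% and 1.05% of all genes were, while limma called 0 in BD_HF minus LF_HF and 0 in VAD_VAD minus LF_LF, where 13 and 23 had an unadjusted p under 0.05 (5.45% and 10.3% of all genes did). *Fgf1*, the one gene of the FGF21 receptor list (6 genes) that was called, is another metabolic FGF. It rose in LF_HF minus LF_LF by 2.67 (SE 0.456, limma adjusted p = 0.0336) and in BD_HF minus LF_LF by 2.996 (SE 0.456, adjusted p = 0.0297), from -1.39 and -1.44 on the LF_LF arrays to 0.85 and 1.67 in LF_HF and 1.56 and 1.60 in BD_HF. The co-receptor and the FGF receptors on that list were not called. Of the pyruvate dehydrogenase list (9 tested), *Pdk1*, a kinase of the same complex as *Pdk4*, rose by 2.28 in BD_HF minus LF_LF (SE 0.413, adjusted p = 0.0491), where *Pdk4* was at -1.34.

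Among the angiopoietin-like proteins and lipases (8 tested), *Lpl*, the lipase that ANGPTL4 inhibits, was the one called. It fell by 2.95 in BD_HF minus LF_LF (SE 0.361, limma adjusted p = 0.0236), from 2.96 and 3.13 in LF_LF to -0.07 and 0.27 in BD_HF. In LF_HF minus LF_LF it fell by 3.31 (adjusted p = 0.0243), with a value on 1 of the 2 LF_HF arrays. Of the insulin-like growth factor list (12 tested), 2 fell in LF_HF minus LF_LF. *Igfbp7* fell by 1.98 (SE 0.347, adjusted p = 0.0360). *Igfbp6* was well above background on 0 of the LF_HF arrays, with a value on 1 of them, and was at least 8.396-fold lower (adjusted p = 0.0258). The size of the *Igfbp6* difference moved with the handling of dim and outlier spots: it was -3.32, but -0.39 with normexp background and the 75th percentile (adjusted p = 0.376), -0.98 with normexp and quantile normalization (adjusted p = 0.0626) and -0.13 with outlier spots kept (adjusted p = 0.977).

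Of PPARA and its targets (19 tested), 1 was called, *Cyp4a14*, a fatty acid hydroxylase. It fell by 5.04 in LF_HF minus LF_LF (SE 0.733, limma adjusted p = 0.0224), from 7.16 and 6.89 to 1.16 and 2.81. The difference was -4.22 without LF_HF replicate 1 and -5.86 without LF_HF replicate 2. The uncalled difference of *Fgf21* had the same direction. Of the 19 genes on the list, 6 were above 0 in LF_HF minus LF_LF (median -0.36 beside -0.02 over all genes). In BD_HF minus LF_LF 15 of the 19 were above 0 (median 0.28 beside 0.11), while *Fgf21* was at -3.34. In BD_HF minus LF_HF limma called 0 of the 19, with 4 at an unadjusted p under 0.05, and 19 were above 0 (median 0.59 beside 0.17 over all genes). In VAD_VAD minus LF_LF it called 0, with 2 at an unadjusted p under 0.05, and 17 were above 0 (median 0.53 beside 0.09). Of all genes, 5.45% and 10.3% had an unadjusted limma p under 0.05 in these 2 comparisons. The hepatocyte markers were above 0 for 10 of 10 in both, with medians of 0.22 and 0.71, so this direction was not particular to the PPARA list. Of the sestrin, p53 and ATF4 list (12 tested), *Asns*, a target of ATF4 that makes asparagine, fell by 2.47 in BD_HF minus LF_LF (SE 0.392, adjusted p = 0.0344). Of the glucocorticoid, glucagon and FOXO list (14 tested), *Sgk1*, a kinase induced by glucocorticoids, fell by 2.47 in LF_HF minus LF_LF (SE 0.412, adjusted p = 0.0324). Of the other secreted proteins (16 tested), *Gpnmb* was lower in BD_HF than in LF_LF (limma adjusted p = 0.0497), with 0 of the BD_HF arrays well above background. With the background handling of the report it was at least 45.0-fold lower. That bound did not hold with normexp background and the 75th percentile. There the log2 difference was -2.89 (limma adjusted p = 0.000249), a smaller change. Limma called 0 of the 7 leptin receptor signalling genes and 0 of the 8 lipin and triglyceride synthesis genes in any comparison. Over the 4 comparisons 0 of 28 and 3 of 32 of these tests had an unadjusted p under 0.05, where 5.45% to 16.6% of all genes did. All 11 of these calls held without LF_HF replicate 1, as did the 8 that could be fitted without LF_HF replicate 2. None of the 11 held without BD_HF replicate 1, without BD_HF replicate 2, without LF_LF replicate 1 or without LF_LF replicate 2, and 3 held without VAD_VAD replicate 1 or VAD_VAD replicate 2. In the fits without a BD_HF, LF_LF or VAD_VAD array fewer of all genes were called too, so this loss was not particular to the 11. With the slide as a block 8 of the 11 held. For the calls in BD_HF minus LF_LF, the fits without either LF_HF array are nearly the same test. *Lpl* and *Igfbp6* had no value on LF_HF replicate 1. Leaving it out could not change their differences in LF_HF minus LF_LF, only the estimate of the spread.

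Markers of other cells differed with the diets as well. Stellate and fibroblast markers were called lower for 4 of 7 in each of the 3 comparisons with LF_LF, with medians of -2.52 in LF_HF, -2.39 in VAD_VAD and -2.23 in BD_HF, where 1.87%, 0.478% and 1.05% of all genes were called lower. Their summed level, as multiples of the 75th percentile, was 182 to 209 on the LF_LF arrays and 57.5 to 134 elsewhere. Macrophage markers were called lower for 2 of 7 in LF_HF minus LF_LF, and their summed level was 124 to 138 on the LF_LF arrays and 40.3 to 82.1 elsewhere. Not all of them went this way: 2 of the 7 were above 0 in LF_HF minus LF_LF, 2 in VAD_VAD minus LF_LF and 3 in BD_HF minus LF_LF. Their mean log2 level was 2.68 and 2.63 on the LF_LF arrays, and close to that, at 2.53, on VAD_VAD replicate 2. Bile duct markers were called lower for 2 of 6 in LF_HF minus LF_LF and 1 of 6 in VAD_VAD minus LF_LF. Of pancreatic markers 1 of 4 tested was called higher in LF_HF minus LF_LF. Limma called 0 of 7 endothelial, 0 of 4 adipocyte and 0 of 5 skeletal muscle markers tested in any comparison. Over the 4 comparisons 7 of 28, 3 of 16 and 3 of 20 of these tests had an unadjusted p under 0.05, where 5.45% to 16.6% of all genes did. In BD_HF minus LF_HF 4 of 7 endothelial markers had such a p, where 5.45% of all genes did, with a median difference of 1.33. The summed endothelial level was 12.5 to 22.9 on the LF_HF arrays and 28.0 to 53.3 elsewhere. The stellate and macrophage lists were highest on the same 2 LF_LF arrays on which *Angptl6* and *Enho* were lowest and *Pdk4* was highest, and their part in those values was not tested. In bulk tissue, fewer cells of a type and less RNA per cell cannot be told apart.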

How the data were processed

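Feature Extraction 10.7.3.1 read the images of Agilent design 014868, per the file headers. The deposited files hold, per spot, a processed intensity on a linear scale after background handling, raw mean and background intensities, and flags for outliers and for signal well above background, per the file headers. Limma is also named, with no version, in the submitters' processing notes. The rounded values of the deposited series table are the same intensity (at most 0.497% apart).

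Outlier spots and 1639 control spots were left out here, log2 intensities of a probe's spots were averaged, and values were set against the array's 75th percentile. A probe was kept if both arrays of some group read it well above background (26224 probes), and the brightest stood for each of 17354 genes. Differences were estimated with limma 3.58.1 in R 4.3.3 (lmFit, then eBayes, with 4 residual and 3.42 prior degrees of freedom) over the 8 arrays together, and p-values were adjusted over all genes tested by the Benjamini-Hochberg method. BD_HF minus LF_LF is not among the comparisons the design states. The code was tested on simulated data. The number of arrays limits the precision. A fold for a gene below background in a group is a bound, with that group at the lowest signal well above background on each array. Reference symbols matched 28223 of 41174 probes (68.5%), and 0 columns lacked a sample. Promoters come from RefSeq (GRCm38.p6), and probe positions from the files (mm9). The software also included data.table (1.17.8), jsonlite (2.0.0), pandas (2.3.3), numpy (2.4.6) and matplotlib (3.10.9) with Python 3.11.15.

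The 9 genes, the 10 pathway lists, the 8 marker lists and the motifs were chosen with earlier results of these data known. All 9 genes are described. From the lists, at most 2 genes per list and comparison are named, those with the largest change among the called genes whose arrays did not overlap. Alternatives were background correction, normalization, the series table, the filter, the probe rule, the variance model, array weights, the arrays fitted, the slide as a block and leaving out each array. The slide block was run again as a replicate block with the same result, and both are counted among the alternatives. For differences that do not involve LF_HF, leaving out either LF_HF array gives nearly the same test, and both are counted too. Keeping outlier spots, and the slide as a block without LF_HF replicate 1, were added after seeing the data. Same-numbered arrays shared a slide, and their deviations from the group means correlated at 0.0994 to 0.304 over genes. The labels do not say that the numbers mark shared litters or animals.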

Additional observations from a re-analysis of the deposited data

How the results depend on the processing

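The number of the 9 genes called was 0 in each comparison with the settings of the report, and it moved as follows. With normexp background and the 75th percentile it was 2 in LF_HF minus LF_LF, 2 in BD_HF minus LF_LF and 1 for any difference among groups. There, 15.4% and 4.03% of all genes were called in these 2 comparisons. For any difference 718 of 17354 genes were called, against 150 with the settings of the report. With normexp and quantile normalization 2 of the 9 were called in LF_HF minus LF_LF and 1 in BD_HF minus LF_LF. Of all genes, 8.1% and 4.97% were called there. With probes required above background on all 8 arrays the count of the 9 was 1 in LF_HF minus LF_LF, 1 in BD_HF minus LF_LF and 1 for any difference. Of all genes, 4.36% and 2.29% were called in these 2 comparisons, and 412 of 13979 genes for any difference. With trended, robust variances 1 of the 9 was called for any difference, where 761 of 17354 genes were. Array weights gave 1 of the 9 in VAD_VAD minus LF_LF, 2 in BD_HF minus LF_LF and 1 for any difference. Of all genes, they called 6.75% and 16.1% in these 2 comparisons, and 436 genes for any difference. A fit of only the compared groups called 14.8% of all genes in BD_HF minus LF_LF, and 2 of the 9 genes. Leaving out each array in turn gave 0 to 1 in BD_HF minus LF_HF, 0 to 2 in LF_HF minus LF_LF, 0 to 1 in VAD_VAD minus LF_LF, 0 to 2 in BD_HF minus LF_LF and 0 to 5 for any difference. The slide as a block without LF_HF replicate 1 gave 1 in VAD_VAD minus LF_LF, 2 in BD_HF minus LF_LF and 2 for any difference. The replicate block, which is also the slide block, gave 0 in every comparison, and it changed no call of the 9 genes: the adjusted p became 0.165 for *Fgf21* and 0.169 for *Angptl6* in BD_HF minus LF_LF and 0.256 for *Lpin1* in VAD_VAD minus LF_LF. Signs turned in 39 of 819 values of the 9 genes, none of them called at the report's settings, and nearly all in comparisons with LF_HF. In BD_HF minus LF_HF, the median scaling gave 0.47 for *Fgf21*, 0.47 for *Enho* and 0.62 for *Lpin1*, quantile normalization 1.23 for *Fgf21* and -0.15 for *Igfbp2*, normexp with quantile -0.24 for *Igfbp2*, and the mean of all probes -0.22 for *Sesn1*. In LF_HF minus LF_LF, the median scaling gave -0.64 for *Lepr*, -0.035 for *Enho* and -0.70 for *Sesn1*, quantile normalization -0.11 for *Lepr* and 0.067 for *Lpin1*, normexp with quantile 0.053 for *Lpin1*, normexp with the 75th percentile -0.060 for *Sesn1*, and keeping outlier spots -0.017 for *Lepr* and -0.071 for *Sesn1*. There, the slide as a block without LF_HF replicate 1 gave 0.59 for *Angptl4*, -1.13 for *Lepr*, 0.42 for *Igfbp2* and 1.37 for *Lpin1*. The median scaling moved the median of all genes to 0.95 in BD_HF minus LF_HF and to -0.74 in LF_HF minus LF_LF, from 0.17 and -0.02. Leaving out 1 array gave, in BD_HF minus LF_HF, -0.18 to 1.49 for *Angptl4*, -0.70 to 0.0083 for *Enho*, -1.78 to 1.09 for *Fgf21*, -0.88 to 1.04 for *Igfbp2*, -2.46 to 0.46 for *Lepr* and -1.29 to 0.91 for *Lpin1*. In LF_HF minus LF_LF it gave -1.21 to 0.47 for *Angptl4*, -1.35 to 0.56 for *Igfbp2*, -1.36 to 1.56 for *Lepr*, -1.12 to 1.09 for *Lpin1* and -0.12 to 0.20 for *Sesn1*. It gave -0.93 to 0.27 for *Fgf21* in VAD_VAD minus LF_LF, and -0.72 to 0.089 for *Igfbp2* and -0.42 to 0.00997 for *Lpin1* in BD_HF minus LF_LF. Over all genes, calls without LF_HF replicate 1 numbered 1917 in LF_HF minus LF_LF, 921 in VAD_VAD minus LF_LF and 1588 in BD_HF minus LF_LF, against 432, 99 and 262 with all arrays. Without LF_HF replicate 2 they numbered 4264, 845 and 1459, and 3093 in BD_HF minus LF_HF against 1, and in LF_HF minus LF_LF 62.2% of them were higher, against 24.8% with all arrays. Of the 11 calls in the pathway lists, 0 held with no filter, 3 with the median scaling, 4 with outlier spots kept and 5 with array weights. The cause of these shifts was not tested.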
